A study of Homo sapiens with 12 samples.

Results

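The messenger RNAs of 9 zinc finger genes were followed through an ADAR3 RNA immunoprecipitation experiment of U373-MG cells. They were chosen by gene ID and are 9 of the 31707 genes listed in the deposited tables: ZNF91 (ENSG00000167232), ZNF43 (ENSG00000198521), ZNF37A (ENSG00000075407), ZNF12 (ENSG00000164631), ZNF83 (ENSG00000167766), ZNF121 (ENSG00000197961), ZNF107 (ENSG00000196247), ZNF263 (ENSG00000006194) and ZNF445 (ENSG00000185219). ADAR3 belongs to the adenosine deaminases acting on RNA and binds double-stranded RNA, but is not known to edit, and the study looked for the RNAs that the endogenous protein binds. All 12 libraries came from U373-MG, a human glioblastoma line grown in serum-containing medium and treated with ultraviolet light at 150 mJ per cm2 before lysis and sonication. The groups were 4 libraries of immunoprecipitation (IP) labelled ADAR3, 4 labelled PreImmune, the usual control for non-specific recovery, and 4 of input RNA. The labels name no transgene or knockout, so no cells without ADAR3 serve as a control. Whether the replicates are separate cultures is not stated, and the p-values therefore reflect only the spread of these libraries, which may be technical. In bulk RNA, fewer cells holding an mRNA and less of it per cell cannot be told apart.

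C2H2 zinc finger proteins form the largest family of human transcription factors, and each binds DNA through an array of fingers folded around zinc. Many carry a KRAB domain, which recruits the corepressor TRIM28 and the machinery of repressive histone methylation to the bound site, often a transposable element. The genes arose by repeated duplication, lie in clusters, above all on chromosome 19, and share long stretches of similar sequence.

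In RefSeq's annotation of GRCh38.p14, 4 of the genes lie on chromosome 19: ZNF91 at chr19:23305004-23395471, ZNF43 at chr19:21804946-21852065, ZNF83 at chr19:52612377-52690496 and ZNF121 at chr19:9560329-9584504. ZNF12, at chr7:6688433-6706947, and ZNF107, at chr7:64666133-64711577, share chromosome 7. ZNF37A lies at chr10:38094337-38150293, ZNF263 at chr16:3283491-3301401 and ZNF445 at chr3:44431705-44477670. The 10 flanking protein-coding genes were taken as 5 on each side in order of position. Of these, 10 around ZNF43, 9 each around ZNF91 and ZNF83, and 8 each around ZNF121 and ZNF107 were also named ZNF. That number was 5 for ZNF263, 4 each for ZNF37A and ZNF445, and 2 for ZNF12. Near-identical relatives can share reads, and the counting rule for such reads is not given in the sources used here. The strand setting of the counting is not given either, and 6 of the 9 spans overlap other annotated genes, so their counts are uncertain to that extent. The overlapping genes are protein-coding for ZNF83 (LOC122539214, with 2 further noncoding entries) and ZNF263 (TIGD7). They are 3 lncRNAs and 2 pseudogenes for ZNF91, 1 pseudogene each for ZNF43 and ZNF445, and 1 pseudogene and 1 miRNA for ZNF107.

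The bases before the transcription start show how close some of these genes are. Of the 45 pairs among 10 windows of 250 bases upstream of a RefSeq start (2 windows for ZNF83 and 1 for each other gene), 4 aligned over at least 100 bases. ZNF43 and ZNF91 were 87.6% identical over 225 aligned bases, ZNF107 and ZNF91 84.6% over 221, and ZNF107 and ZNF43 84.1% over 239. For ZNF43 the start in RefSeq's table lies 15883 bases inside the gene's annotated span, so a start farther upstream is not covered. The fourth pair was that of the 2 ZNF83 windows, 85.3% identical over 238 bases, and the other 41 pairs aligned over at most 39. The longest run shared exactly by ZNF91, ZNF43 and ZNF107 is AGCCCTGCCTGAAAAGGC, with 18 bases. Searched on both strands, it was found in 8 of 35116 such windows of all genes (0.0228%), and all 8 belong to ZNF genes (1.24% of 647 ZNF windows). Of the 8, 3 are the windows of ZNF91, ZNF43 and ZNF107, which were bound to hold the run. The 100 bases around it are shown 5′ to 3′ on the gene's strand from RefSeq (GRCh38.p14), with the shared run in capitals, because the IP levels of these close relatives are set side by side in the results. They lie at chr19:23395592-23395691 (minus strand) for ZNF91, chr19:21836300-21836399 (minus strand) for ZNF43 and chr7:64665920-64666019 (plus strand) for ZNF107.
ZNF91: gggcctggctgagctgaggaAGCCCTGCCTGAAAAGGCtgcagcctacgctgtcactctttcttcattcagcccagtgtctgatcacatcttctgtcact
ZNF43: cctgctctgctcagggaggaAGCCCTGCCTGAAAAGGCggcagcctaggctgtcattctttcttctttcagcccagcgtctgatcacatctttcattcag
ZNF107: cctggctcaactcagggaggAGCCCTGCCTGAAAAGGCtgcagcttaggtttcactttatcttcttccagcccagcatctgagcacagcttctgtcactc

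The 9 mRNAs were measured at unequal depth. The reads counted in genes numbered 23999234 to 30156884 per library in ADAR3 IP, 1875461 to 4946149 in pre-immune IP and 4873428 to 12772412 in input. Levels are given as CPM, the reads of a gene per 1000000 gene reads of its library. The 9 mRNAs together took 299 to 329 CPM in ADAR3 IP, against 188 to 283 CPM in pre-immune IP, with 247 to 284 CPM in input, so every ADAR3 IP library lay above every other library in this sum on the CPM scale. On the deposited scale of the IPs they overlapped, since the sum was 2694 in pre-immune replicate 1, against 2661 in ADAR3 IP replicate 1 and 2627 in replicate 3. The sum does not hold for each gene and was not set beside sums of other genes. ZNF445 had the widest gap in mean, 44.1 CPM in ADAR3 IP against 9.35 CPM in pre-immune IP. ZNF121 (32.0 against 44.5 CPM) and ZNF107 (46.2 against 57.5 CPM) went the other way. CPM does not correct for transcript length, and apart from this sum, levels are compared between groups for 1 gene and not between genes.

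**Figure D1:**
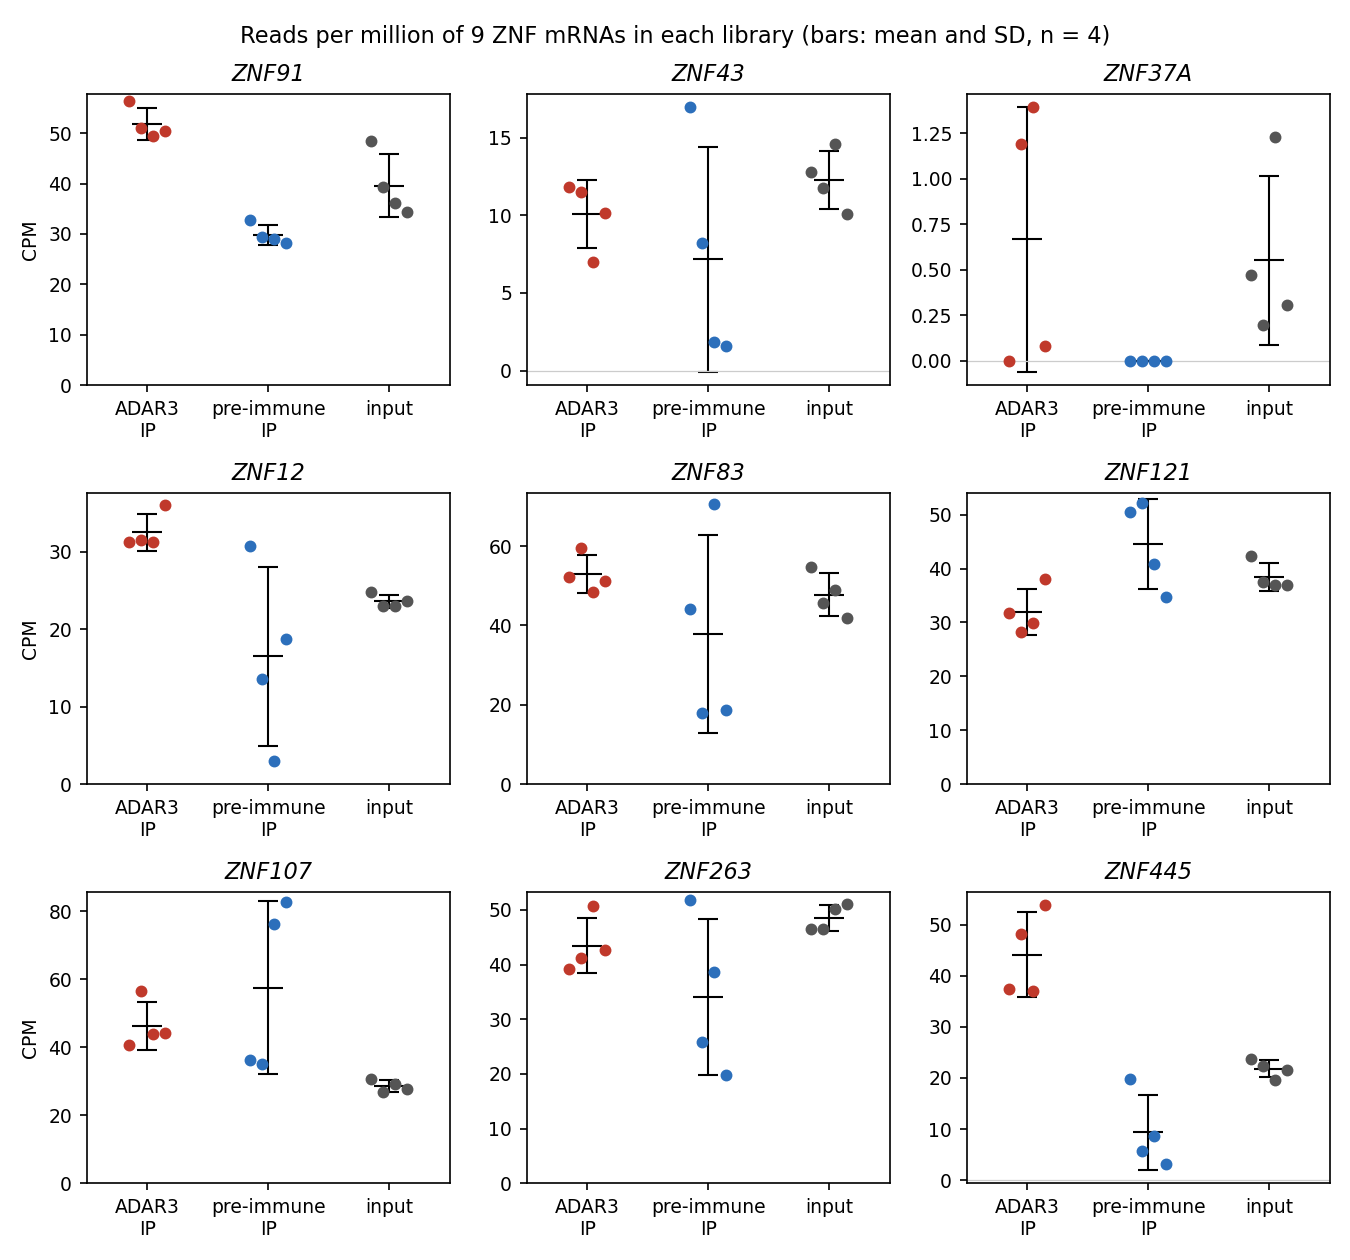
Level of each of the 9 mRNAs in CPM (vertical axis, from 0, scaled separately per gene) in each ADAR3 IP, pre-immune IP and input library (points, replicates 1 to 4 from left to right), with the mean and SD of 4 libraries (black bars). On average ZNF445, ZNF91, ZNF12, ZNF83 and ZNF37A are highest in ADAR3 IP and lowest in pre-immune IP. ZNF107 is lowest in input, and the pre-immune points of most genes are widely scattered.

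Setting ADAR3 IP against pre-immune IP asks which mRNAs took a larger share of the reads in ADAR3 IP than in the control for non-specific recovery. The values are scaled per library, so the total RNA recovered by each IP does not enter them. An equal or lower share therefore does not mean that no more of an mRNA was recovered. Of the 8 mRNAs with enough reads for the test, 6 had a positive fold change, led by ZNF445, but none passed the test. A positive sign was common among all tested genes, whose median was 0.25. The positive value of ZNF263, 0.36, exceeded 55.5% of them, and the negative value of ZNF107, -0.29, still exceeded 22.3%. With limma on log2(deposited value + 1), 0 of the 8 were higher or lower at an adjusted p under 0.05, where 2.33% of the 11112 tested genes were called higher and 1.74% lower. At an unadjusted p under 0.05, ZNF445 and ZNF91 counted as higher and 0 members as lower, against 10.2% and 7.33% of all tested genes. edgeR on the same genes called 1 member, ZNF445, higher (2.69% of genes higher) and 0 lower (1.75%), as it did with its own filter (6.9% and 1.69%). DESeq2 called ZNF91 and ZNF445 higher (8.75%) and ZNF121 lower (5.63%). The split of all genes depended on scaling, with 259 higher and 193 lower on the deposited scale, 333 and 147 by library size, and 449 and 129 by TMM. The ninth mRNA, ZNF37A, did not reach the minimum mean of 50 normalized counts over the 8 IP libraries. The 8 log2 fold changes had a median of 0.68, against 0.25 over all tested genes, and ran from -0.55 for ZNF121 to 2.44 for ZNF445.

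**Figure D2:**
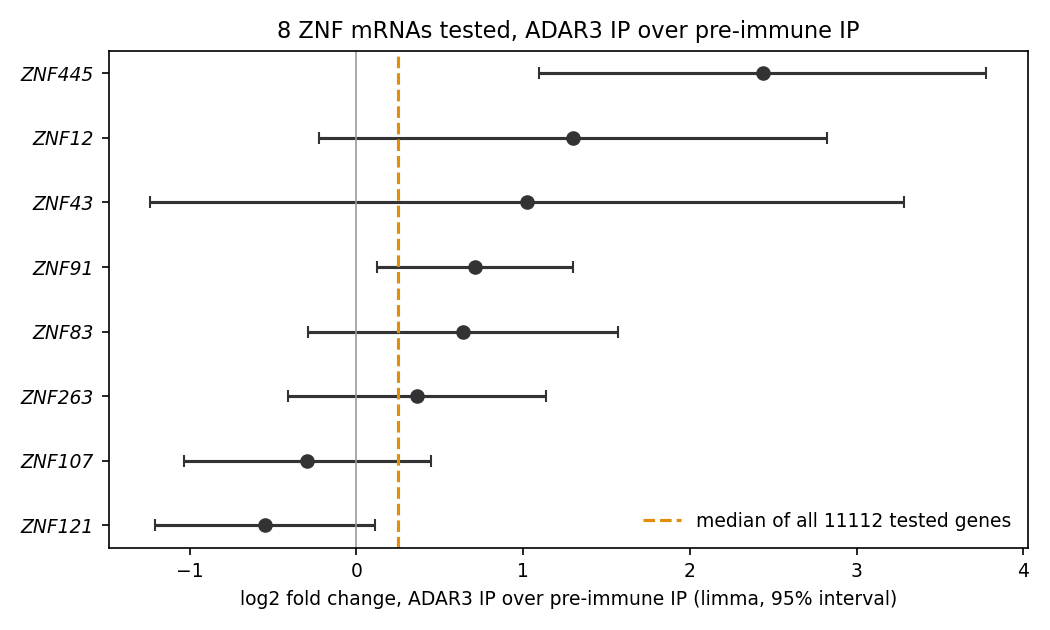
Log2 fold change of ADAR3 IP over pre-immune IP (horizontal axis) for the 8 mRNAs tested, with 95% limma intervals (bars) and the median of all tested genes, 0.25 (dashed). ZNF445 (2.44) lies highest and ZNF121 (-0.55) lowest, and the intervals of ZNF445 and ZNF91 leave out 0.

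ZNF445 encodes a KRAB zinc finger protein that helps to maintain DNA methylation at imprinted genes. Its mRNA stood at 37.3, 48.1, 37.1 and 53.9 CPM in ADAR3 IP, against 19.8, 5.72, 8.65 and 3.20 CPM in pre-immune IP, with 23.7, 22.3, 19.7 and 21.5 CPM in input. All 4 ADAR3 IP libraries lay above all 4 input libraries and all 4 pre-immune libraries, and the highest pre-immune library only reached the lowest input library. The mean was 44.1 ± 8.31 CPM in ADAR3 IP against 9.35 ± 7.32 CPM in pre-immune IP (SD, n = 4 each), a ratio of 4.72. The log2 fold change was 2.44 ± 0.61 (SE; 95% interval 1.098 to 3.78), larger than that of 92.9% of tested genes, and its limma adjusted p of 0.0501 just missed the threshold. The pre-immune levels rest on 98, 16, 38 and 6 reads.

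ZNF445 was positive in every setting, but not always past the threshold. Over 23 settings the log2 fold change ran from 2.05 to 2.91 and the adjusted p from 0.000797 to 0.208, and 11 passed. It passed with edgeR on the same genes (adjusted p = 0.0462), with edgeR's own filter (0.0324) and with DESeq2 (0.000797). Without pre-immune replicate 1 or 4 the limma adjusted p became 0.0174 or 0.0276. Without pre-immune replicate 2 or 3 it was 0.0668 or 0.0551, and without any 1 ADAR3 IP library it lay between 0.158 and 0.208. The authors' deposited table gives the same values as the DESeq2 setting, a log2 fold change of 2.12 with an adjusted p of 0.000797, and is not a separate result.

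**Figure D3:**
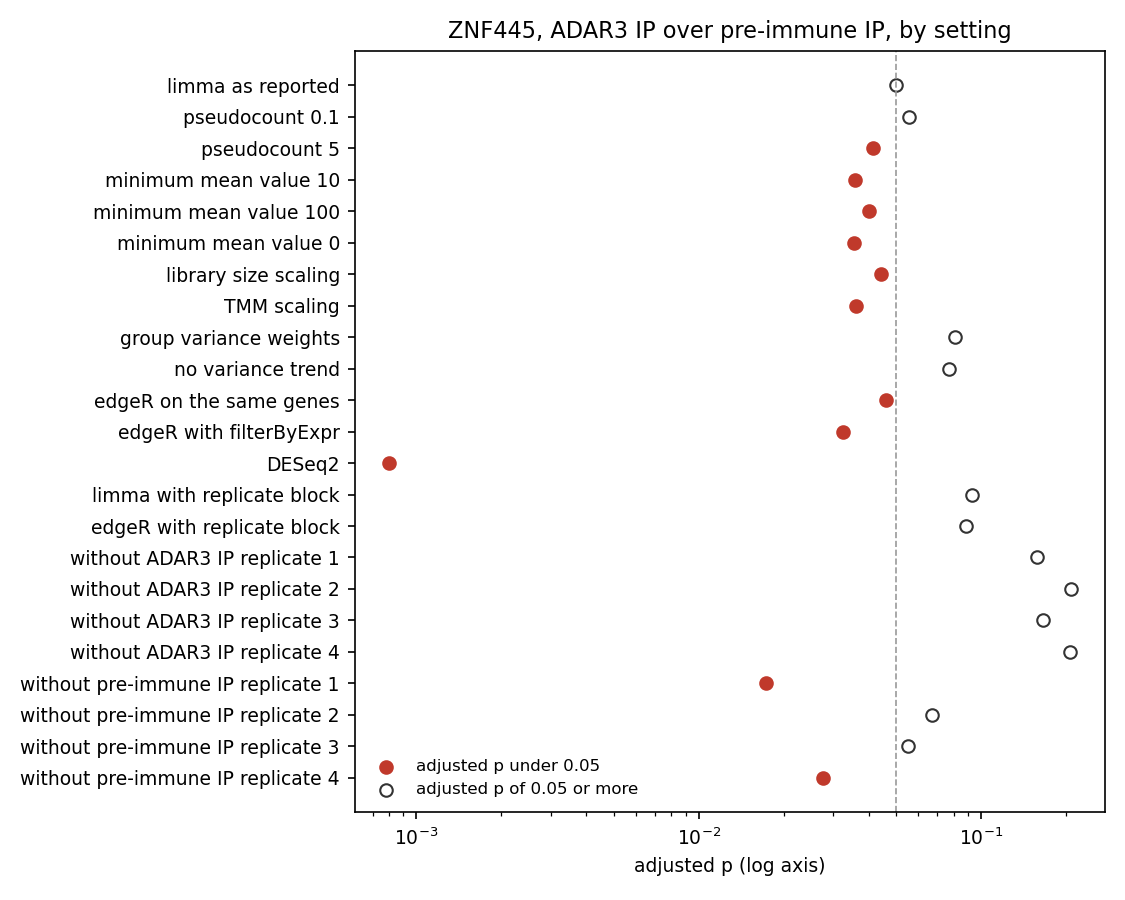
Adjusted p of ZNF445 for ADAR3 IP over pre-immune IP (horizontal log axis) under each setting (vertical axis), filled where it was under 0.05 (dashed line). Values run from 0.000797 with DESeq2 to 0.208 without ADAR3 IP replicate 2, and 11 of 23 settings passed.

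ZNF91 encodes a KRAB zinc finger repressor of SVA retrotransposons, a primate-specific class of mobile element. Its mRNA stood at 56.4, 50.9, 49.4 and 50.4 CPM in ADAR3 IP, against 32.8, 29.3, 28.9 and 28.3 CPM in pre-immune IP, with 48.4, 39.3, 36.1 and 34.4 CPM in input. On the CPM scale the 3 groups did not overlap. Every ADAR3 IP library was above every input library, and every input library above every pre-immune library. This order was shown by 1.24% of tested genes and by no other member. The gap between input and pre-immune IP was narrow, at 34.4 against 32.8 CPM. With median-ratio size factors over 12 libraries, the log2 ratio of pre-immune IP over input moved from -0.39 to -0.26, so that part of the order may depend on the scaling. The means were 51.8 ± 3.15 CPM in ADAR3 IP, against 29.8 ± 2.01 CPM in pre-immune IP, with 39.6 ± 6.23 CPM in input (SD, n = 4 each).

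The log2 fold change of ZNF91, ADAR3 IP over pre-immune IP, was 0.71 ± 0.27 (SE), with a limma adjusted p of 0.187. It was smaller than the fold changes of ZNF445, ZNF12 and ZNF43, but ZNF91 had the tightest pre-immune libraries of the 8 tested mRNAs, with an SD of 0.092 on the log2(CPM + 1) scale against 0.27 to 1.36 for the other 7. DESeq2 gave an adjusted p of 3.527e-06 for a log2 fold change of 0.71, as does the authors' deposited table, while the adjusted p of the 23 settings ran up to 0.497 and only DESeq2 passed. Over the 23 settings the log2 fold change ran from 0.67 to 0.86.

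ZNF43 and ZNF107, whose upstream sequences resemble that of ZNF91, had other patterns. ZNF43 had 11.8, 11.5, 7.01 and 10.1 CPM in ADAR3 IP, against 17.0, 8.23, 1.82 and 1.60 CPM in pre-immune IP, with 12.8, 11.8, 14.6 and 10.1 CPM in input. The pre-immune libraries straddled the other groups, from 84 reads in replicate 1 to 3 in replicate 4. Its log2 fold change of 1.02 ± 1.03 (SE), with a limma adjusted p of 0.611, became 1.66 without pre-immune replicate 1, 0.57 without replicate 3 and 0.56 without replicate 4. ADAR3 IP averaged 10.1 ± 2.19 CPM and input 12.3 ± 1.87 CPM, with overlapping libraries.

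ZNF107 had 40.5, 56.4, 43.9 and 44.1 CPM in ADAR3 IP, against 36.2, 35.0, 76.3 and 82.6 CPM in pre-immune IP, with 30.7, 26.8, 29.1 and 27.6 CPM in input. It was the 1 member above input in every library of both IPs, which 3.93% of tested genes were. The pre-immune libraries fell into a lower and a higher pair, below and above all ADAR3 IP libraries. Set against pre-immune IP, the log2 difference was -0.29 ± 0.34 (SE), at a limma adjusted p of 0.656. It was -0.069 without pre-immune replicate 4 and -0.15 without replicate 3, and was -0.47 and -0.48 without replicates 1 and 2. Across the 12 libraries ZNF43 and ZNF107 were the most opposed of the 36 pairs of members, with a Pearson correlation of log2(CPM + 1) of -0.82, which is a description of libraries that share 3 groups.

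ZNF263 encodes a zinc finger protein with a SCAN and a KRAB domain. Its mRNA had 39.1, 41.3, 50.7 and 42.6 CPM in ADAR3 IP, against 51.8, 25.7, 38.7 and 19.7 CPM in pre-immune IP, with 46.4, 46.5, 50.1 and 51.1 CPM in input. ADAR3 IP overlapped both other groups. The log2 fold change over pre-immune IP was 0.36 ± 0.35 (SE), with a limma adjusted p of 0.601. Without pre-immune replicate 4 the fold change became 0.15, and without replicate 1 it became 0.60. The mean of 43.4 ± 5.07 CPM in ADAR3 IP was not above the 48.5 ± 2.40 CPM in input (SD, n = 4 each).

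ZNF12, a KRAB zinc finger gene, had 31.3, 31.4, 31.2 and 36.0 CPM in ADAR3 IP, against 30.7, 13.6, 2.96 and 18.7 CPM in pre-immune IP, with 24.7, 22.9, 23.0 and 23.6 CPM in input. Every ADAR3 IP library was above every input library. Pre-immune replicate 1 came within 1 CPM of the lowest ADAR3 IP library, and on the deposited scale it lay inside the ADAR3 IP range, so the separation of the IPs depends on the scaling. The log2 fold change over pre-immune IP was 1.30 ± 0.69 (SE), with a limma adjusted p of 0.361. Without pre-immune replicate 3, which held 13 reads of the gene, the fold change became 0.59.

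ZNF83 had 52.2, 59.6, 48.4 and 51.2 CPM in ADAR3 IP, against 44.1, 17.9, 70.6 and 18.7 CPM in pre-immune IP, with 54.7, 45.5, 49.0 and 41.8 CPM in input. ADAR3 IP and input covered much the same range, and the pre-immune libraries reached both below and above it. Its log2 fold change was 0.64 ± 0.42 (SE), with a limma adjusted p of 0.452, and leaving out pre-immune replicate 2, 3 or 4 gave 0.37, 0.99 or 0.40.

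ZNF121 was the member with the lowest fold change. Its mRNA had 31.8, 28.2, 29.9 and 38.0 CPM in ADAR3 IP, against 50.5, 52.2, 40.8 and 34.7 CPM in pre-immune IP, with 42.4, 37.4, 36.9 and 37.0 CPM in input. In ADAR3 IP 3 of the 4 libraries lay below all 8 libraries of the other groups, and replicate 4 overlapped both. The log2 fold change over pre-immune IP was -0.55 ± 0.30 (SE), with a limma adjusted p of 0.370. DESeq2 alone of the 23 settings passed, at -0.57 with an adjusted p of 0.0347, also the value in the authors' deposited table, and the adjusted p ran up to 0.663 over the settings.

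ZNF37A was close to the detection limit. It had 0, 36, 38 and 2 reads in ADAR3 IP (0 to 1.39 CPM), 0 reads in all 4 pre-immune libraries, and 6, 2, 6 and 3 reads in input (0.198 to 1.23 CPM). Its ADAR3 IP reads came almost wholly from replicates 2 and 3. Pooled over the group, 76 reads in ADAR3 IP against a floor of 3 reads in pre-immune IP gave a ratio of 3.22. That ratio allows for counting error in the pre-immune 0 only, takes the 76 reads as they stand, and rests on 2 libraries. With 0 reads in ADAR3 IP replicate 1, the libraries of the 2 IPs overlapped. The pooled count of 0 in pre-immune IP allows up to 0.214 CPM.

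Set against input, the members fell on both sides in ADAR3 IP. Because the authors scaled input apart from the IPs, these levels were recomputed as CPM and not tested. Every ADAR3 IP library was above every input library for 4 members, ZNF445, ZNF107, ZNF12 and ZNF91, and every one below for 0, where 29.3% of tested genes were above and 31.7% below. The log2 ratio of ADAR3 IP over input was 0.97 for ZNF445, 0.67 for ZNF107, 0.44 for ZNF12, 0.39 for ZNF91, 0.15 for ZNF83 and 0.037 for ZNF37A. It was -0.16 for ZNF263, -0.26 for ZNF121 and -0.27 for ZNF43. The median of 0.15 over the 9 stands against -0.012 over all tested genes, whose quartiles were -0.51 and 0.45, so 7 members lay within the middle of all genes and ZNF445 and ZNF107 above it. The 0.037 of ZNF37A has no settled sign, since it became -0.35 with a pseudocount of 0.1 CPM.

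In pre-immune IP the members were mostly below input. Every pre-immune library was above every input library for ZNF107 (5.93% of tested genes), and every one below for ZNF91 and ZNF37A (16.3%). For ZNF37A this rests on 0 pre-immune reads and on 2 to 6 reads per input library (mean 0.552 CPM). Pooled over the pre-immune libraries, that 0 allows up to 0.214 CPM. A single library allows more, so the size of the difference is not settled. The log2 ratio of pre-immune IP over input was 0.88 for ZNF107, larger than in 97.2% of tested genes, and 0.19 for ZNF121. The other 6 with pre-immune reads ran from -1.39 for ZNF445 to -0.39 for ZNF91. The value of ZNF37A is set by the pseudocount, at -0.59 with 1 CPM and -2.46 with 0.1 CPM. The median over the 9 was -0.59, or -0.61 with 0.1 CPM, against -0.33 over all tested genes. For ZNF445 the difference between the IPs thus had both parts, a mean of 44.1 CPM in ADAR3 IP against 21.8 CPM in input, and 9.35 CPM in pre-immune IP against the same input. ZNF107 was above input in both IPs.

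**Figure D4:**
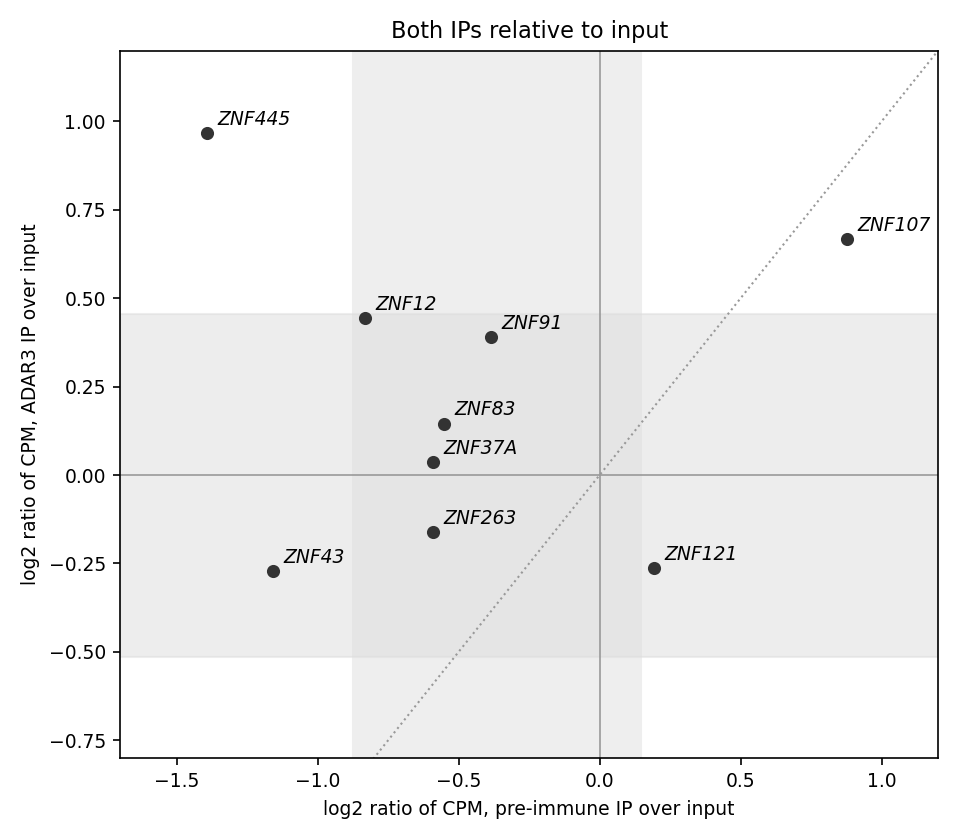
Log2 ratio of CPM of pre-immune IP over input (horizontal axis) against that of ADAR3 IP over input (vertical axis) for the 9 mRNAs, with the interquartile range of all tested genes shaded on each axis and equal ratios dotted. ZNF445 stands at the upper left (-1.39 and 0.97), ZNF107 at the upper right (0.88 and 0.67), and ZNF107 and ZNF121 are the members below the dotted line; the horizontal place of ZNF37A, at 0 pre-immune reads, is set by the pseudocount.

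Every ADAR3 IP library exceeded every library of both controls for ZNF445, ZNF91 and ZNF12, where 7.76% of all tested genes did so. On the deposited scale of the IPs, ZNF445 and ZNF91 were above pre-immune IP in every library (8.8% of tested genes higher, with 0 members among the 6.68% lower). On the CPM scale ZNF12 joined them (10.7% higher, and 0 members among the 5.31% lower).

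The spread between replicates was greatest in pre-immune IP for 7 of the 9 mRNAs on the log2(CPM + 1) scale. The exceptions were ZNF91, widest in input, and ZNF37A, at 0 in all pre-immune libraries. The variance between replicates over that of counting, 1 for pure counting, was in pre-immune IP 0.535 for ZNF91, 4.16 for ZNF121 and 17.3 to 47.4 for the other 6 genes with reads, where the median of all tested genes was 30.6. In input it was 0.318 to 1.17 for ZNF12, ZNF445, ZNF263 and ZNF107, 1.96 for ZNF121, 2.09 for ZNF43, 2.80 for ZNF37A, 7.02 for ZNF83 and 10.3 for ZNF91, where that median was 1.85. In ADAR3 IP it ran from 4.23 for ZNF12 to 31.0 for ZNF107 and 41.5 for ZNF445, where that median was 21.8. The ratio grows with depth, so it is not compared between groups, and it covers PCR copies as well as molecules, since libraries were amplified for 15 cycles and no molecular identifiers are named in the labels.

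The members did not share a single profile over the 12 libraries. The 36 pairwise correlations of log2(CPM + 1) had a median of 0.31 and ran from -0.82 to 0.88, the highest between ZNF91 and ZNF445. Pearson correlations with the mean of the 9 standardised profiles were 0.95 for ZNF445 and 0.83 for ZNF263. They were -0.35 for ZNF121 and -0.44 for ZNF107. By Spearman correlation ZNF445 stood at 0.82 and ZNF121 at -0.34, but ZNF263 at 0.47 and ZNF107 at 0.042. ZNF12 was the highest member by Spearman, at 0.84, against 0.64 by Pearson. The closeness of ZNF263 and the opposition of ZNF107 to that mean thus depended on the measure. Of 9808 other genes with a mean of at least 10 CPM, those most like that mean were ENSG00000069424 and ENSG00000011566, each with a Pearson correlation of 0.97 over 12 libraries. ENSG00000069424 averaged 57.5 CPM in ADAR3 IP, against 14.7 CPM in pre-immune IP, with 26.9 CPM in input, the same order as ZNF445.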

How the data were processed

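Per the submitters' processing notes, STAR 2.7.7a, featureCounts, DESeq2 and GRCh38 were used, without stated roles. Per the labels' protocols, a strand-specific kit was used after depletion of ribosomal RNA, and IP libraries were built from all of the precipitated RNA. The extracted molecule is nevertheless labelled as polyA RNA, so whether unspliced RNA was also measured is not settled. The strand setting of the counting is not given in the sources used here. The authors deposited a normalized signal, which the values show to be gene counts divided by 1 factor per library, in a table of 28556 genes for the IPs and a separately normalized table of 28061 genes for input. Divided by the step of 1 read, 100% of values came out whole (tolerance 0.001), so reads were recovered. Beside these values stand the log2 fold changes, p-values, adjusted p-values and test score that the authors deposited for the IPs, and 0 columns of other samples.

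The main test was limma 3.58.1 (R 4.3.3) on log2(deposited value + 1) with a variance trend, for the 11112 genes with a mean of at least 50 over the 8 IP libraries, adjusted by Benjamini-Hochberg over all of them. The pseudocount understates changes of low genes. edgeR 4.0.16 and DESeq2 1.42.0 on recovered reads, other scalings, filters and pseudocounts, and leaving out libraries were alternatives. Fits were also run on simulated data, but the outcome is not given here, so the power to call a change is not stated. Members, lists and the minimum of 50 were chosen with earlier results of these data known. All 9 members are named, with the 2 genes of most similar profile. Gene IDs are matched to symbols only for the members, so planned lists of other ZNF genes, KRAB cofactors and cell markers, including the check of the glioblastoma label, were not analysed here. The deviations of libraries with the same number had correlations of -0.0016 to 0.024, so replicate numbers were not taken to pair libraries.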

Additional observations from a re-analysis of the deposited data

Results flagged for a closer look

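In 26 sets of 4 libraries, 9 mRNAs in 3 groups without the set at 0 in all libraries, 2 held a library far from the other 3 by Dixon's test. ZNF12 stood at 36.0 CPM in ADAR3 IP replicate 4, above 31.2 to 31.4 CPM in the other ADAR3 IP libraries. ZNF121 stood at 42.4 CPM in input replicate 1, above 36.9 to 37.4 CPM in the other input libraries. Chance marks about 1 set in 20.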

How the results depend on the processing

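The number of members called higher, 0 with limma, became 1 (ZNF445) at a pseudocount of 5, at minimum means of 10, 100 and 0, with library size or TMM scaling, and with edgeR on the same genes or with its own filter, and 2 (ZNF91 and ZNF445) with DESeq2. The number called lower, 0, became 1 (ZNF121) with DESeq2. Leaving out 1 library gave 0 to 1 higher and 0 lower. Fitted with a replicate block, both limma and edgeR called 0 members, and ZNF445 had adjusted p-values of 0.0929 and 0.0886. The median log2 fold change of 0.68 ran from 0.42 to 0.82 over 22 alternatives, while that of all tested genes, 0.25, was 0.396 with TMM scaling and -0.00063 with edgeR. Over all genes 74 to 1571 were called higher and 55 to 1010 lower, against 259 and 193. The median of ADAR3 IP over input, 0.15, became 0.28 as a ratio of mean CPM. It ran from 0.085 to 0.25 when a library was left out. Both the 0.28 and the 0.25 (without ADAR3 IP replicate 1) are the value of ZNF37A, which is close to the detection limit. The median of pre-immune IP over input ranged from -0.70 to -0.37, where 12-library size factors moved all genes from -0.33 to -0.21. ZNF37A in ADAR3 IP over input reversed to -0.35 at a pseudocount of 0.1 CPM and ran from -0.17 to 0.25 when a library was left out (-0.13 without ADAR3 IP replicate 2, -0.073 and -0.031 without input replicates 2 and 4). All 8 tested members kept the sign of ADAR3 IP over pre-immune IP in every alternative that tested them (ZNF43 was below the minimum mean of 100). By Spearman correlation, 0 of the 2 most similar genes were shared. The causes of these shifts were not tested. The pre-immune values of the 8 tested members rest on 3 to 335 reads per library.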
